A study of Mus musculus with 6 samples.

Results

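The 9 genes described here mark general capillary cells of the lung: Gpihbp1, Lpl, Plvap, Kit, Cd93, Ptprb, Hpgd, Cadm1 and Adgrl4. They were taken by name from gene tables of 24520 mouse Ensembl identifiers, and each was found once. RNA had been sequenced from lung endothelial cells, the lining cells of blood vessels, isolated by fluorescence-activated sorting. There were 3 libraries labelled knockout (KO) and 3 labelled wild type (WT) for Dnmt3a, which encodes an enzyme that places new DNA methylation. The sources used here do not give the allele, the cells in which it was deleted, the age of the mice, the sort gate or whether each library came from its own animal. The p-values therefore measure the spread among these libraries alone, and that spread may be technical. KO and WT below stand for the labels.

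The alveolar wall holds general capillary cells and aerocytes. General capillary cells are known as the type that can divide and renew the capillary bed, while aerocytes are large cells that spread over the gas exchange surface. The marker genes serve several tasks. GPIHBP1 carries lipoprotein lipase, encoded by Lpl, to the vessel lumen, where the enzyme splits triglycerides. KIT, CD93 and ADGRL4 are cell surface receptors, and PTPRB removes phosphate from the receptor TIE2 and from VE-cadherin complexes. PLVAP builds the diaphragms of caveolae and fenestrae, CADM1 is an adhesion molecule of the immunoglobulin superfamily, and HPGD inactivates prostaglandins.

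Because the study concerns DNA methylation, the letters at the start sites of the 3 of the 9 genes matched in the RefSeq promoter table are shown with each CpG, the pair of bases that is methylated in mammals, in capitals. These are Hpgd, Adgrl4 and Kit. The windows run from 250 bases before to 50 bases after a RefSeq start site on GRCm38.p6, the assembly called mm10, all on the plus strand. They lie at chr8:56294302-56294601 for Hpgd, chr3:151437632-151437931 for Adgrl4 and chr5:75574737-75575036 for Kit.
Hpgd: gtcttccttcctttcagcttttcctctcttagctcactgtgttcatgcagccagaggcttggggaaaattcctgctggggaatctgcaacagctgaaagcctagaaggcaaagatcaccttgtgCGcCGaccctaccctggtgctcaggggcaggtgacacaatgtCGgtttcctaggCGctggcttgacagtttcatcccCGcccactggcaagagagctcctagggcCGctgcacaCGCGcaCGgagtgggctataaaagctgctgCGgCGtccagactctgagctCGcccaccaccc
Adgrl4: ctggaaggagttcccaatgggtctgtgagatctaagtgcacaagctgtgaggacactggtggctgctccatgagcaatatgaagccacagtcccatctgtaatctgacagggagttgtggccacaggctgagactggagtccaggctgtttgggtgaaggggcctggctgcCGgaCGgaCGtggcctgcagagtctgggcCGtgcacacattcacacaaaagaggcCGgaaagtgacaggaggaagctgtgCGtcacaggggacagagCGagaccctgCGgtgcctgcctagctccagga
Kit: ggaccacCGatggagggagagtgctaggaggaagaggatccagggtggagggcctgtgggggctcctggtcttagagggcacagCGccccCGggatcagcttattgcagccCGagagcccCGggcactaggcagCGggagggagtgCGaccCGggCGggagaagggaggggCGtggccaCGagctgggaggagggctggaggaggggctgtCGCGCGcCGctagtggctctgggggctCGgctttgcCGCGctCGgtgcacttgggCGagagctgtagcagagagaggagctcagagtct
The Kit window held 20 CpGs, the Hpgd window 12 and the Adgrl4 window 8. A second Kit window in the table, chr5:75574741-75575040, held 21 and is not printed. Of the 32851 windows in the same table, 26.5% held at least 20 CpGs, 39.6% at least 12 and 48.7% at least 8, and the median was 7. The letters CAGGAA and CCGGAA, 2 forms of the core that ETS factors bind, were searched on both strands; CCGGAA itself holds a CpG. Hpgd held CAGGAA once and Adgrl4 held CCGGAA once, against 30.6% and 14.9% of all windows, and Kit held neither in these 300 bases.

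Library totals ran from 28136194 to 39999172 estimated counts. Dnmt3a itself had 172, 161 and 161 CPM (read counts scaled to library size by TMM) in KO replicates 1, 2 and 3, against 37.6, 36.5 and 31.8 CPM in WT replicates 1, 2 and 3 (log2 fold change 2.22, SE 0.11, edgeR adjusted p = 0.00157). The targeted gene thus goes against the labels, so "higher in KO" below means higher in the libraries that carry that label; exon-level values were not analysed here. Pecam1 and Cdh5, which encode endothelial adhesion proteins, were at 1846 CPM or more in every library. By Xist, replicate 1 was female and replicates 2 and 3 were male in both labels. KO replicate 2 and WT replicate 3 stood apart from the rest: 25 and 16 genes there were at 10 CPM or more and at least 3-fold above every other library, against 0 to 2 genes in each of the other libraries. The 25 include Lpl, so the fitted value without KO replicate 2 is also given for many of the genes below. Where it is not printed, the value may still have moved.

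None of the 9 genes passed the test between the labels. By edgeR's quasi-likelihood test, adjusted over 14667 genes by Benjamini-Hochberg at 0.05, 0 of 9 were called, beside 0.0341% of all tested genes; of all tested genes 0.0205% were called higher and 0.0136% lower. One member, Ptprb, had an unadjusted p under 0.05, beside 12.6% of all tested genes. The log2 fold change was above 0 for 8 of the 9 genes, against 50.9% of all tested genes, and its median was 0.31, against 0.0086 over all genes. Without KO replicate 2 that median was -0.06 and 4 of the 9 values were above 0. DESeq2, the other count test, called 0 of the 9 members and 2.68% of the genes to which it gave an adjusted p. In bulk RNA, a difference in the number of general capillary cells and one in RNA per cell cannot be told apart.

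**Figure D1:**
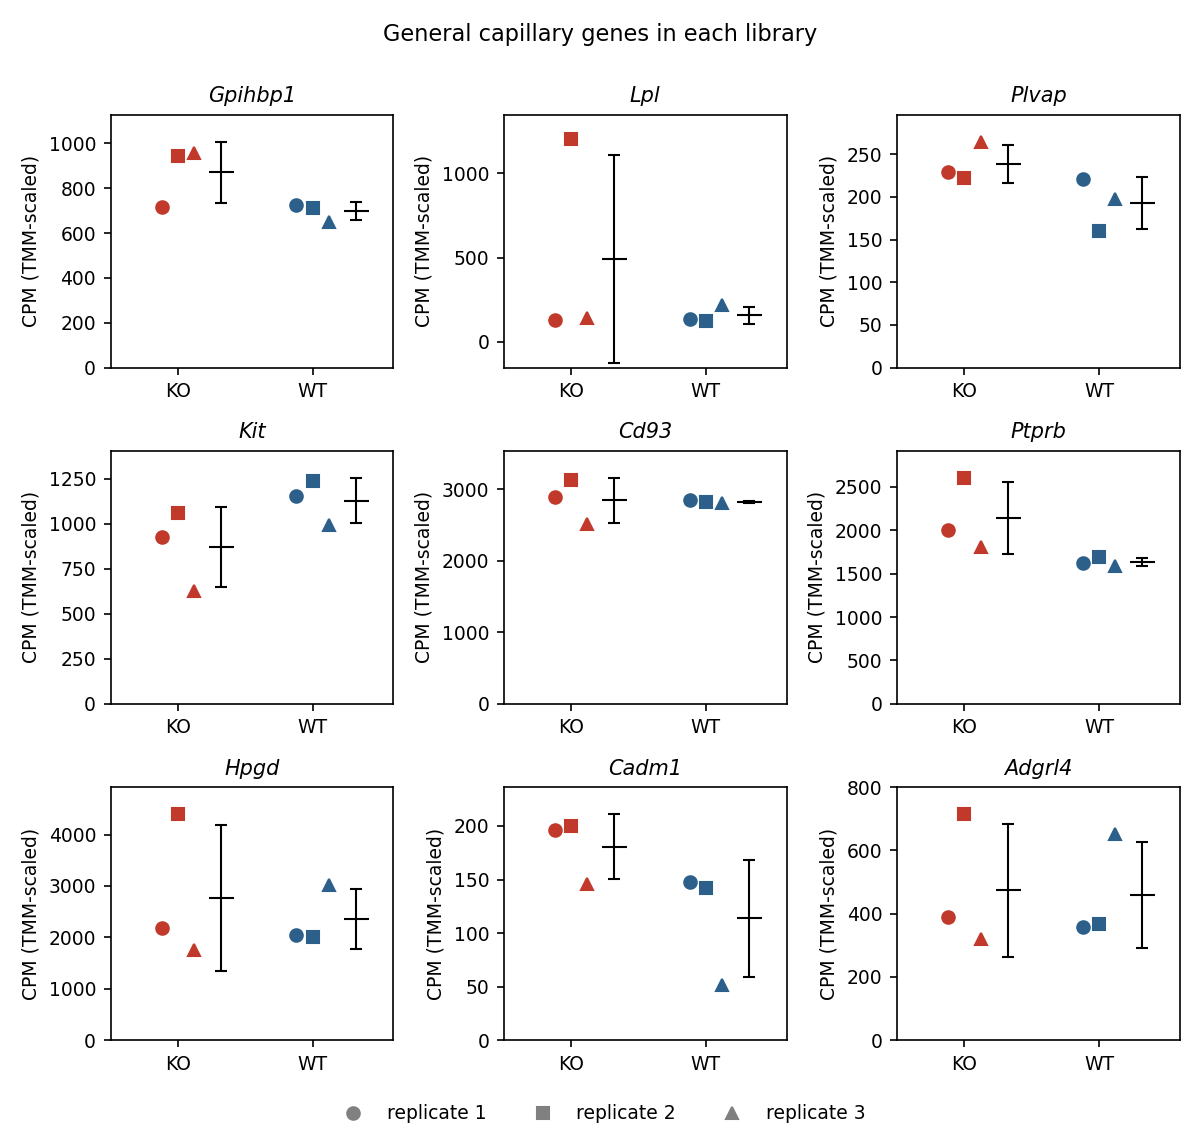
Level of each general capillary gene in every library, in CPM scaled by TMM; KO libraries are red, WT libraries blue, and the marker shape gives the replicate number. Black bars are the mean and SD of 3 libraries. Lpl stands at 1204 CPM in KO replicate 2 and at 120 to 216 CPM in the other libraries, while Ptprb and Plvap are the genes whose KO and WT points do not overlap.

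Of the pair that acts in lipolysis, Gpihbp1 (ENSMUSG00000022579, mm10 chromosome 15, 75596628 to 75599481, plus strand) was at 714, 942 and 955 CPM in KO replicates 1, 2 and 3, against 727, 713 and 650 CPM in WT replicates 1, 2 and 3. KO replicates 2 and 3 were above every WT library, whereas KO replicate 1 lay among them. The means were 870 ± 136 CPM in KO and 697 ± 40.7 CPM in WT (SD, n = 3 each), and the log2 ratio of KO to WT was 0.32 (SE 0.15, edgeR adjusted p = 0.411). In TPM, the length-scaled transcript level deposited by the authors, the labels did not overlap, with 2199 to 2778 TPM in KO and 1735 to 2103 TPM in WT, so that the overlap of this gene depends on the scale.

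Lpl (ENSMUSG00000015568, chromosome 8, 68880491 to 68907448, plus strand) was at 127, 1204 and 138 CPM in KO replicates 1, 2 and 3, against 134, 120 and 216 CPM in WT replicates 1, 2 and 3. A single library was high: KO replicate 2 stood 5.59-fold above the next highest library and 9.09-fold above the mean of the other KO libraries, which lay inside the WT range. Its log2 fold change was 1.64 (SE 0.85, edgeR adjusted p = 0.453), and without KO replicate 2 it was -0.24 (SE 0.26, adjusted p = 0.72; range over the alternatives 0.351 to 0.929). DESeq2 gave Lpl no p. Gpihbp1 RNA exceeded Lpl RNA by 38.9-fold, 5.43-fold and 48.2-fold in TPM in KO replicates 1, 2 and 3, and by 37.5-fold, 41.2-fold and 20.9-fold in WT replicates 1, 2 and 3.

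Lpl is also made by fat cells, macrophages and heart muscle, so their markers were read beside it. Of 5 adipocyte markers 3 (Cidec, Lep and Retn) had no count in any library, and the list summed to 0 CPM in each KO library and to at most 0.03 CPM in WT. The 10 macrophage markers summed to 5.86 to 7.13 CPM in KO and 6.26 to 10.1 CPM in WT; Marco and Csf1r had no count, and the sum rested on Cd68 and Mrc1. The 9 heart muscle markers, a list made after the values were seen, summed to 56.2, 93.2 and 26.5 CPM in KO replicates 1, 2 and 3, against 35.7, 17.2 and 35.0 CPM in WT replicates 1, 2 and 3, and none had no count throughout. Myh6, a cardiac myosin, was at 0.541, 12.2 and 0.0677 CPM in KO replicates 1, 2 and 3, against 0.669, 0.372 and 0 CPM in WT replicates 1, 2 and 3. The sum of this list and Myh6 were thus highest in the library with the high Lpl level. Not every marker of the list followed. Leaving out KO replicate 2 took the log2 fold change of Actc1 from 1.09 to 0.40 and that of Myl7 from 3.10 to 1.95. That of Myl4 went from 0.42 to 0.49. The part of heart muscle RNA in the Lpl level was not tested.

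Among the receptors, Kit (ENSMUSG00000005672, chromosome 5, 75574916 to 75656722, plus strand), the tyrosine kinase receptor for KIT ligand, was at 928, 1057 and 627 CPM in KO replicates 1, 2 and 3, against 1153, 1239 and 992 CPM in WT replicates 1, 2 and 3. KO replicates 1 and 3 were below every WT library and KO replicate 2 was inside the WT range. The means were 871 ± 221 CPM in KO and 1128 ± 125 CPM in WT (SD, n = 3 each), and the log2 ratio of KO to WT was -0.37 (SE 0.20, edgeR adjusted p = 0.472). Leaving out KO replicate 2 gave -0.54, and leaving out KO replicate 3 gave -0.18. Kit also marks mast cells: of 8 mast cell markers 4 (Tpsb2, Tpsab1, Cma1 and Fcer1a) had no count in any library and Cpa3, a mast cell protease, had a count in WT replicate 3 only, at 0.212 CPM. Hdc, which makes histamine, carried nearly all of that list, which summed to 18.1 to 22.7 CPM in KO and 7.89 to 27.5 CPM in WT.

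Cd93 (ENSMUSG00000027435, chromosome 2, 148436640 to 148443563, minus strand), a C-type lectin-like receptor that binds the matrix protein MMRN2, had the narrowest spread of the 9 genes. It was at 2889, 3130 and 2510 CPM in KO replicates 1, 2 and 3, against 2843, 2814 and 2806 CPM in WT replicates 1, 2 and 3. The WT libraries lay inside the range of the KO libraries, and the highest library was 1.25-fold above the lowest. KO over WT, the log2 fold change was 0.01 (SE 0.12, edgeR adjusted p = 0.979), and -0.06 (SE 0.11) without KO replicate 2.

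Adgrl4 (ENSMUSG00000039167, chromosome 3, 151437887 to 151545086, plus strand), an adhesion G protein-coupled receptor of endothelium also called ELTD1, was at 389, 714 and 321 CPM in KO replicates 1, 2 and 3, against 357, 369 and 652 CPM in WT replicates 1, 2 and 3. One library of each label was high and the others lay between 321 and 389 CPM, so the labels overlapped. The log2 fold change was 0.05 (SE 0.35, edgeR adjusted p = 0.969), and it was -0.37 without KO replicate 2 and 0.39 without WT replicate 3.

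Ptprb (ENSMUSG00000020154, chromosome 10, 116275523 to 116389535, plus strand), the vascular endothelial protein tyrosine phosphatase, was at 2004, 2601 and 1804 CPM in KO replicates 1, 2 and 3, against 1626, 1686 and 1593 CPM in WT replicates 1, 2 and 3. All 3 KO libraries were above all 3 WT libraries. The means were 2136 ± 415 CPM in KO and 1635 ± 47.3 CPM in WT (SD, n = 3 each), and the log2 ratio of KO to WT was 0.39 (SE 0.16, edgeR adjusted p = 0.378). In CPM, the labels did not overlap for 2 of the 9 genes, beside 20.3% of all tested genes. In both, Ptprb and Plvap, KO was higher, beside 10.9% of all tested genes, and KO was lower for 0 of the 9, beside 9.42%. In TPM, Gpihbp1 and Cadm1 joined them, making 4 of the 9 beside 20.2% of all tested genes; KO was higher in all 4, beside 13.8%, and lower in 0, beside 6.37%. The value of Ptprb was 0.22 without KO replicate 2 (SE 0.11, adjusted p = 0.42; range over the alternatives 0.224 to 0.698).

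Plvap (ENSMUSG00000034845, chromosome 8, 71497765 to 71511752, minus strand) was at 229, 222 and 264 CPM in KO replicates 1, 2 and 3, against 221, 160 and 197 CPM in WT replicates 1, 2 and 3. The lowest KO library was above the highest WT library by about 1 CPM. KO over WT, the log2 ratio was 0.31 (SE 0.15, edgeR adjusted p = 0.433). The end of the gene, from 71497765 to 71499583, overlaps Gtpbp3 on the other strand, which had 334 to 654 counts per library. Whether the counting used strand is not stated.

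Cadm1 (ENSMUSG00000032076, chromosome 9, 47530173 to 47857637, plus strand) was at 196, 200 and 146 CPM in KO replicates 1, 2 and 3, against 148, 142 and 51.0 CPM in WT replicates 1, 2 and 3. WT replicate 3 was the low library and KO replicate 3 lay beside the other WT libraries. The log2 fold change was 0.67 (SE 0.37, edgeR adjusted p = 0.478) and 0.32 without WT replicate 3. CADM1 is known in lung epithelium as well. Alveolar type 2 markers, 11 genes led by the surfactant gene Sftpc and none without counts, summed to 3722, 2407 and 789.9 CPM in KO replicates 1, 2 and 3, against 9574, 344 and 4217 CPM in WT replicates 1, 2 and 3. WT replicate 2, with the least of these markers, had 142 CPM of Cadm1. With the mean log2 level of that list as a covariate, the log2 fold change of Cadm1 was 0.67 (SE 0.38). None of the 9 genes was called with or without this covariate. An epithelial part in the Cadm1 level was not tested.

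Hpgd (ENSMUSG00000031613, chromosome 8, 56294585 to 56321043, plus strand), 15-hydroxyprostaglandin dehydrogenase, was at 2173, 4395 and 1751 CPM in KO replicates 1, 2 and 3, against 2049, 1997 and 3022 CPM in WT replicates 1, 2 and 3. As for Adgrl4, the high libraries were KO replicate 2 and WT replicate 3, each at least 1.39-fold above the other libraries (1.68-fold for Adgrl4). The log2 fold change was 0.24 (SE 0.35, edgeR adjusted p = 0.802), -0.26 without KO replicate 2 and -0.05 without both of these libraries. Of all tested genes 7.87% had the same pair of libraries as their highest, and 60 genes, or 0.409%, had both at least 1.4-fold above the rest, a mark that Adgrl4 passed and Hpgd did not. This pair was taken from the values of Hpgd and Adgrl4. Over all pairs of libraries, the first share ran from 4.15% to 11.2% and the second from 0.15% to 1.11%.

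**Figure D2:**
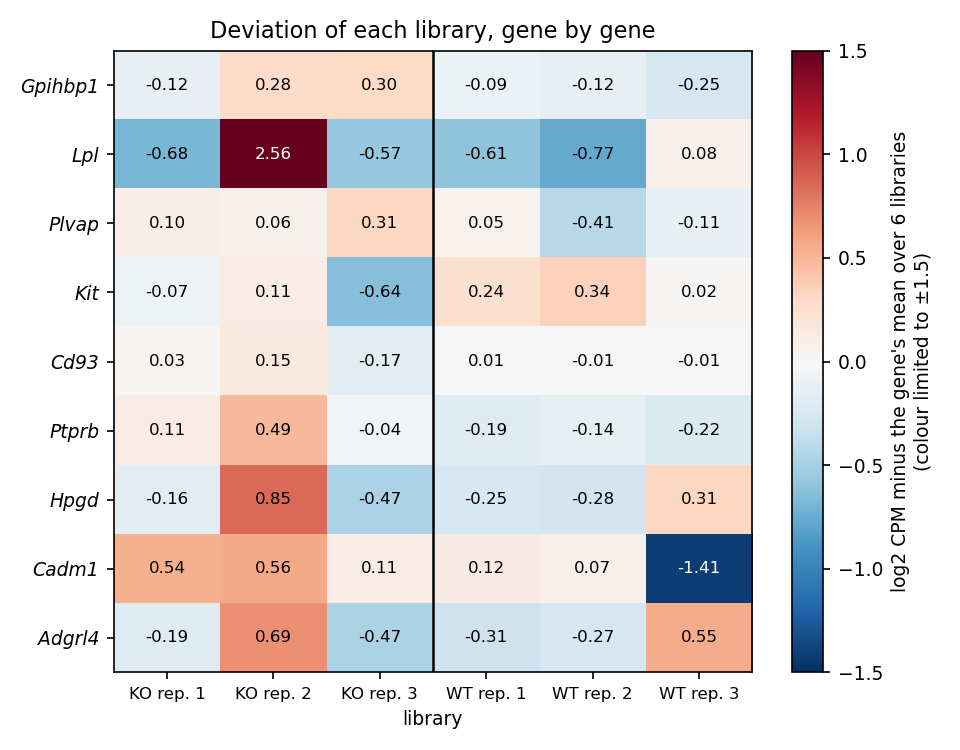
Deviation of each library from the mean over the 6 libraries, in log2 CPM, for each general capillary gene; red is above and blue below the gene's mean, and the colour scale is limited. KO replicate 2 is at 2.56 for Lpl, 0.85 for Hpgd and 0.69 for Adgrl4, and WT replicate 3 is at -1.41 for Cadm1 and 0.55 for Adgrl4.

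Seen by library, KO replicate 2 held the highest CPM of 6 of the 9 genes, KO replicate 3 that of 2 and WT replicate 2 that of 1. The lowest CPM was in KO replicate 3 for 4 genes, in WT replicate 3 for 3 and in WT replicate 2 for 2. The same counts over all tested genes were not taken. Summed over the 9 genes, the level was 9650, 14466 and 8517 CPM in KO replicates 1, 2 and 3, against 9258, 9240 and 10180 CPM in WT replicates 1, 2 and 3. The KO range thus enclosed the WT range.

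**Figure D3:**
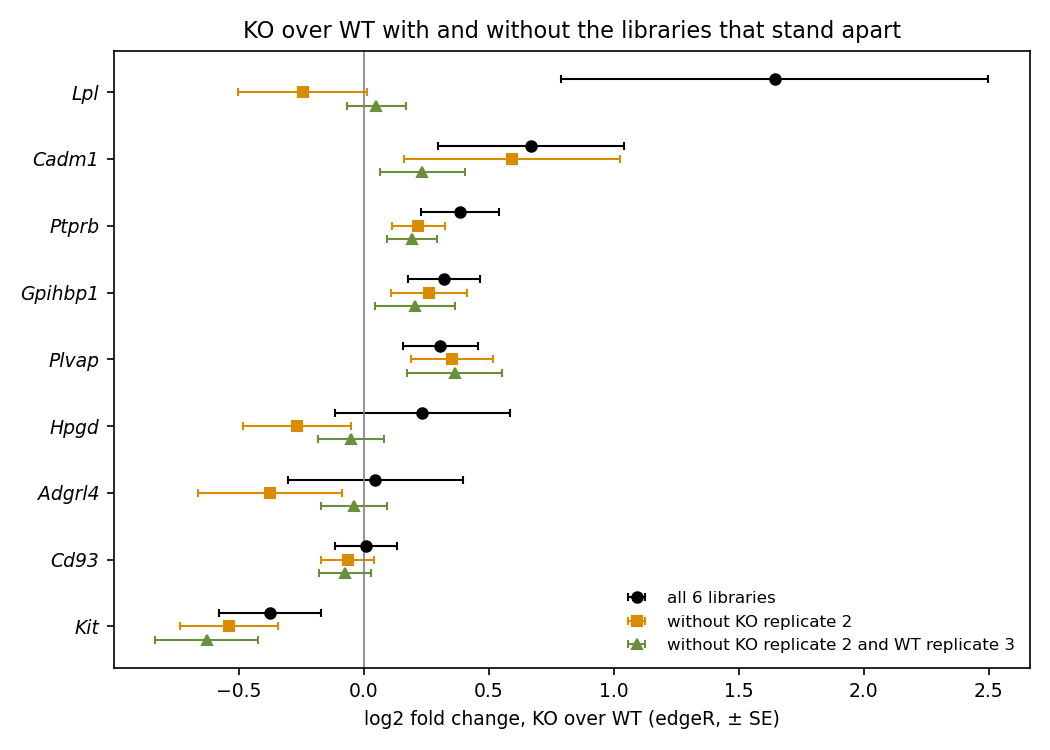
Log2 fold change of each general capillary gene, KO over WT, with its standard error, from edgeR on all 6 libraries (black), without KO replicate 2 (orange) and without KO replicate 2 and WT replicate 3 (green). Lpl moves from 1.64 to -0.24 and 0.05, whereas Ptprb, Gpihbp1, Plvap and Cadm1 stay above 0 and Kit stays below 0 in all 3 fits; none is called.

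The levels of the genes relative to one another were read in TPM, which is scaled by transcript length. Hpgd and Gpihbp1 were the most abundant. Hpgd averaged 3063 ± 1530 TPM in KO and 2463 ± 471 TPM in WT, and Gpihbp1 2578 ± 329 TPM in KO and 1973 ± 206 TPM in WT (SD, n = 3 each). In both labels these means were above those of 99.66% or more of the tested genes. Cd93 came next, at 725 ± 86.2 TPM in KO and 684 ± 36.1 TPM in WT. Kit, Ptprb, Plvap and Adgrl4 followed at 168 to 356 TPM, and Lpl at 207 ± 260 TPM in KO and 63.1 ± 17.4 TPM in WT. Cadm1 had the lowest mean, at 69.5 ± 12.7 TPM in KO and 42.0 ± 21.03 TPM in WT. In the KO libraries the ranges of neighbours overlapped for Hpgd and Gpihbp1 and from Ptprb down to Adgrl4. The place of Lpl in KO rested on KO replicate 2. In KO replicates 1 and 3 Lpl was at 56.5 and 57.7 TPM, inside the Cadm1 range of 54.9 to 78.5 TPM. In the WT libraries they overlapped for Ptprb and Adgrl4, for Adgrl4 and Plvap, and for Lpl and Cadm1. Kit stood above Ptprb in WT, at 295 to 402 TPM for Kit and 196 to 227 TPM for Ptprb, while in KO their ranges overlapped.

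**Figure D4:**
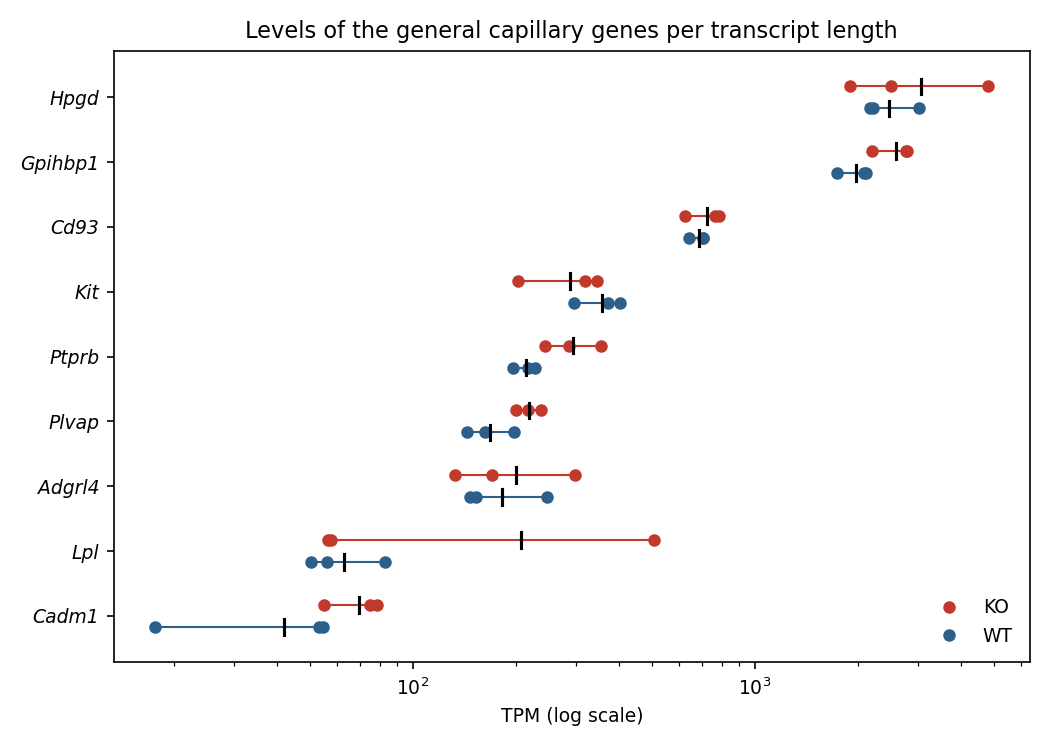
TPM of each general capillary gene on a log axis, ordered by the mean over 6 libraries; points are libraries, thin lines the range and black ticks the mean, KO in red above WT in blue. Hpgd and Gpihbp1 lie at 1735 TPM or more in every library, and Lpl in KO replicate 2, at 508 TPM, lies far to the right of the other Lpl points.

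Other genes were read as lists beside the 9, with edgeR calls given first. Of 14 further general capillary genes 13 were tested and 0 were called (1 with an unadjusted p under 0.05, 0 by DESeq2; 5 of 13 above 0, median log2 fold change -0.08). Tmem100, a membrane protein of endothelium, was at 2294 to 2743 CPM in KO and 2668 to 3176 CPM in WT (log2 fold change -0.21, SE 0.13). Aplnr, the apelin receptor, had a log2 fold change of -0.08 (SE 0.19), and 0.05 without KO replicate 2, and Scn7a, a sodium channel gene, one of -0.23 (SE 0.14). Over the alternatives the median of these 13 ranged from -0.14 to 0.13, and that of the 9 genes from -0.06 to 0.41. Aerocyte genes, the markers of the neighbouring capillary type, had 0 of 12 called (2 with an unadjusted p under 0.05; 9 of 12 above 0, median 0.17, and -0.09 without KO replicate 2). DESeq2 called 2 of them, Tbx2, a transcription factor, and Fibin. Car4, a carbonic anhydrase on their surface, was at 614, 1660 and 1106 CPM in KO replicates 1, 2 and 3, against 844, 909 and 1235 CPM in WT replicates 1, 2 and 3. Like Hpgd, it was highest in KO replicate 2, with a log2 fold change of 0.18 (SE 0.34), and -0.21 without that library. Ednrb, the endothelin B receptor, had a log2 fold change of 0.23 (SE 0.26), and -0.10 without KO replicate 2. For Cyp4b1, a cytochrome P450, it was 0.21 (SE 0.26), and -0.11 without that library. For Apln, the ligand of the receptor that marks general capillaries, it was 0.36 (SE 0.30), and 0.59 without it. For Emp2, a membrane protein, it was -0.13 (SE 0.26), and -0.35 without it. The sign of the Car4, Ednrb and Cyp4b1 values thus turned with KO replicate 2.

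**Figure D5:**
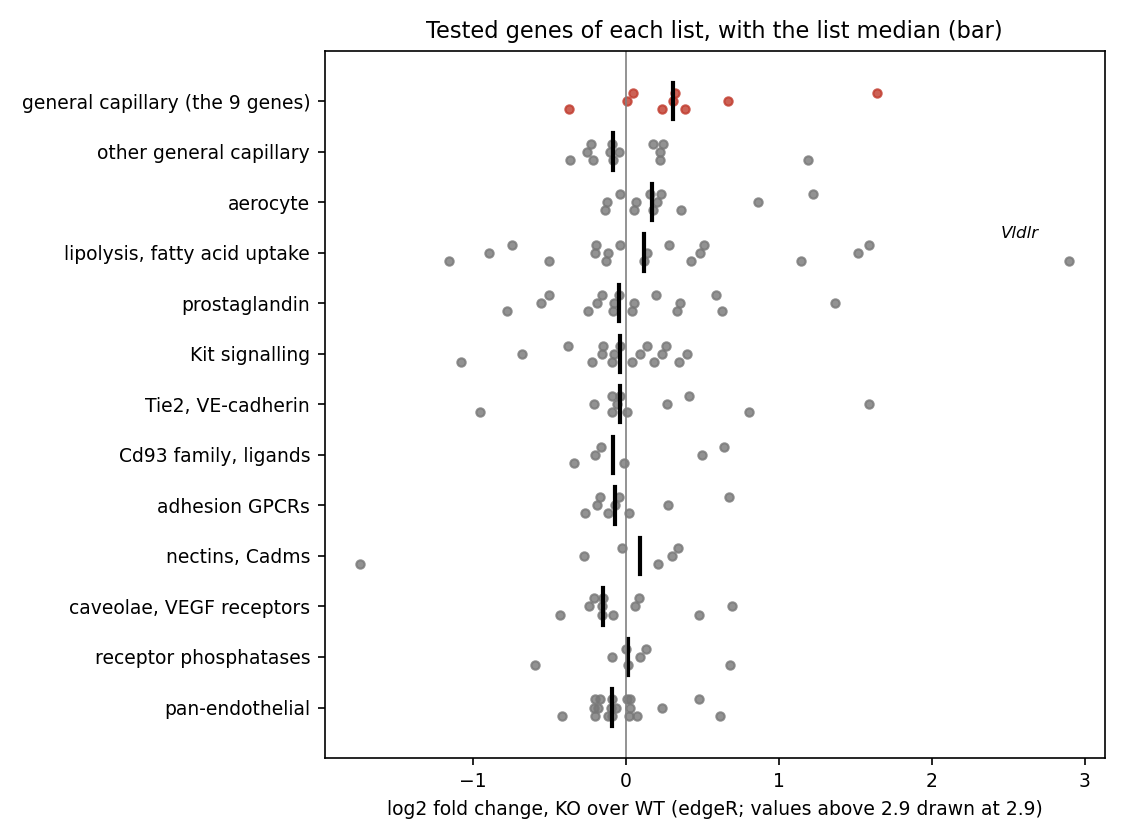
Log2 fold change, KO over WT by edgeR, of the tested genes of each list; each point is a gene, the black bar is the list median, and the 9 general capillary genes are red. The median of the 9 is 0.31 (-0.06 without KO replicate 2), and those of the other lists drawn lie between -0.15 and 0.17. Medians of the marker lists not drawn ran from -1.46 (mesothelial, 1 tested gene) to 1.02 (venous, 8 tested genes). No gene drawn here passes the edgeR test. Vldlr, which had no count in WT, is drawn at the right edge.

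In the pathway of Gpihbp1 and Lpl, 0 of 19 tested genes of lipolysis and fatty acid uptake were called (5 with an unadjusted p under 0.05; 10 above 0, median 0.12), and DESeq2 called 2, Fabp4 and Vldlr. Cd36, a fatty acid receptor, was at 1423, 2513 and 1471 CPM in KO replicates 1, 2 and 3, against 1443, 1356 and 1214 CPM in WT replicates 1, 2 and 3 (log2 fold change 0.43, SE 0.23, edgeR adjusted p = 0.466). Its highest library was that of Lpl, and without it the log2 fold change was 0.11 (SE 0.12). Fabp4, a fatty acid carrier, was at 32.9, 35.6 and 30.4 CPM in KO and at 13.0, 9.62 and 21.9 CPM in WT (replicates 1, 2 and 3; log2 fold change 1.15, SE 0.29, edgeR adjusted p = 0.282), without overlap. Lipa, the lysosomal lipase, had a log2 fold change of -0.50 (SE 0.28), and -0.77 without KO replicate 2. Lmf1, needed for lipase folding, had one of -0.19 (SE 0.20), and -0.44 without KO replicate 2. Angptl4, an inhibitor of lipoprotein lipase, was at 4.87, 25.7 and 6.47 CPM in KO replicates 1, 2 and 3, against 11.99, 8.46 and 5.99 CPM in WT replicates 1, 2 and 3, so it too was highest in KO replicate 2. Vldlr, a lipoprotein receptor named after its values were seen, had 49, 20 and 64 counts in KO replicates 1, 2 and 3 and 0 in each WT library. With 3 counts per WT library as the floor it was at least 16.5-fold higher in KO, and it did not pass (edgeR adjusted p = 0.209).

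Of the genes that act on prostaglandins beside Hpgd, 0 of 17 tested were called (5 with an unadjusted p under 0.05, 0 by DESeq2; 8 above 0, median -0.04). Slco2a1, the transporter that brings prostaglandins to HPGD, was at 961, 1686 and 956 CPM in KO replicates 1, 2 and 3, against 1043, 1209 and 1542 CPM in WT replicates 1, 2 and 3 (log2 fold change -0.07, SE 0.26, and -0.40 without KO replicate 2). Its highest libraries were those of Hpgd. Ptgs1, the cyclooxygenase COX-1, was at 41.9, 170 and 46.2 CPM in KO replicates 1, 2 and 3, against 45.4, 26.5 and 28.1 CPM in WT replicates 1, 2 and 3, again with KO replicate 2 on top. Ptges, a prostaglandin E synthase, was at 0.792 to 2.61 CPM in KO and 1.83 to 1.96 CPM in WT. Ptges3, a synthase that is also a chaperone partner, and Cbr1, a carbonyl reductase, gave log2 ratios of KO to WT of 0.04 (SE 0.12), or 0.10 without KO replicate 2, and -0.25 (SE 0.10).

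Around Kit, 0 of 17 signalling genes were called (3 with an unadjusted p under 0.05, 0 by DESeq2; 8 above 0, median -0.03). Kitl, its ligand, was at 563, 668 and 698 CPM in KO replicates 1, 2 and 3, against 675, 632 and 667 CPM in WT replicates 1, 2 and 3 (log2 fold change -0.03, SE 0.12, and -0.06 without KO replicate 2). Lyn, a kinase that acts with KIT, had a log2 fold change of -0.38 (SE 0.13). Sh2b3, an adaptor that restrains KIT, had one of 0.35 (SE 0.13), and the labels did not overlap for either gene. Of the 17 genes, KO was higher without overlap in CPM for 2 and lower for 1, beside 10.9% and 9.42% of all tested genes. Around Ptprb, 0 of 11 genes were called (1 with an unadjusted p under 0.05, 0 by DESeq2; 5 above 0, median -0.04). Tek, which encodes TIE2, was at 1005, 1303 and 823 CPM in KO replicates 1, 2 and 3, against 997, 1134 and 984 CPM in WT replicates 1, 2 and 3 (log2 fold change 0.01, SE 0.18, and -0.18 without KO replicate 2). The log2 fold changes were -0.09 (SE 0.13) for Cdh5, -0.06 (SE 0.16; -0.17 without KO replicate 2) for Jup, a catenin of cell junctions, -0.09 (SE 0.12) for Tie1, a partner of TIE2, and -0.21 (SE 0.13) for Kdr, a VEGF receptor.

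Around Cd93, 0 of 6 genes were called (0 with an unadjusted p under 0.05, 0 by DESeq2; 2 above 0, median -0.09). Mmrn2, its ligand, had a log2 fold change of -0.20 (SE 0.13), and -0.13 without KO replicate 2. Clec14a, a related receptor, had one of -0.33 (SE 0.28), and -0.57 without that library. Thbd, thrombomodulin, was highest in KO replicate 2, with 0.50 (SE 0.27) over all libraries and 0.13 (SE 0.16) without it. For Igfbp7, another ligand, the log2 fold change was 0.64 (SE 0.28). The lists of related molecules gave 0 called genes as well: 9 adhesion receptors related to Adgrl4 (median -0.07), 6 tested nectins and Cadm genes (0.09), 11 genes of caveolae and VEGF receptors related to the place of PLVAP (-0.15) and 7 tested receptor phosphatases (0.01). In these 4 lists 1, 0, 3 and 1 genes had an unadjusted p under 0.05, and DESeq2 called 1 gene, the phosphatase Ptprj. Adgrf5, an adhesion receptor of lung endothelium, was highest in KO replicate 2, with a log2 fold change of 0.28 (SE 0.20) over all libraries and 0.02 (SE 0.11) without it. Nectin3 had one of 0.31 (SE 0.19), and Cav1, the main caveolar coat protein, one of -0.15 (SE 0.19), and -0.38 without KO replicate 2.

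Markers of other vessel types and cells were measured too. Arterial genes had 1 of 10 called by edgeR, Mgp, an inhibitor of calcification (log2 fold change 1.49, SE 0.12, edgeR adjusted p = 0.016). DESeq2 called 3, Mgp, Eln, which encodes elastin (1.44 by edgeR, SE 0.28), and the connexin gene Gja4, which was lower in KO (-1.26 by edgeR, SE 0.30). Venous genes had 0 of 8 tested called by edgeR and 3 by DESeq2 (Prss23, Slc6a2 and Vwf), with a sum of 1426 to 1959 CPM in KO and 862 to 1081 CPM in WT, and lymphatic genes 0 of 5 by edgeR and 1 by DESeq2 (Lyve1), with 985 to 1305 CPM in KO and 357 to 690 CPM in WT. The 19 pan-endothelial genes summed to 22445 to 27094 CPM in KO and 23900 to 28933 CPM in WT. Fibroblast markers summed to 327 to 475 CPM in KO and 170 to 244 CPM in WT, with 10 of 10 tested and 1 called by edgeR, the collagen gene Col3a1 (log2 fold change 1.22, SE 0.11, edgeR adjusted p = 0.0223). DESeq2 called 5 of them, Col1a1, Col3a1, Dcn, Inmt and Npnt. The edgeR call of Col3a1 was lost on leaving out any of the 6 libraries (adjusted p 0.0781 to 0.293), and that of Mgp on leaving out any but KO replicate 2 (0.0581 to 0.172). Venous, lymphatic and fibroblast sums did not overlap between the labels, as for Ptprb and Plvap. In the lymphatic list 3 of 5 tested genes were above 0, with a median of 0.16. Its most abundant gene was Lyve1, at a mean of 434 TPM (log2 fold change 1.27, SE 0.33), followed by Flt4 at 54.0 TPM (0.16, SE 0.17). How often sums of other lists do not overlap was not measured. The part of these cells in the Ptprb and Plvap levels was not tested. The other marker lists, for immune, blood, epithelial, mural and mesothelial cells, had 0 genes called by edgeR, and DESeq2 called 1 of them, Hopx of alveolar type 1 cells.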

How the data were processed

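The authors deposited estimated counts per gene, in whole numbers without normalization, and TPM values whose columns sum to 875864 to 885609, for 3 libraries labelled KO and 3 labelled WT. The submitters' processing notes name kallisto, without a version, and mm10; which annotation was used, and how transcripts were combined into genes, is not stated. Per the labels' protocols, cDNA was amplified from 10 ng of RNA and read in pairs of 100 bases. Symbols (24298 of 24520 identifiers) and coordinates came from GENCODE M21, and promoter letters from RefSeq. Identifiers without a symbol held 0.030% to 0.040% of the counts.

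Counts were rounded, which changed 0 values, and tested with edgeR 4.0.16 (quasi-likelihood, TMM, filterByExpr) over all 6 libraries, in R 4.3.3; alternatives used limma 3.58.1 and DESeq2 1.42.0. The SE is the log2 fold change divided by the root of F. On simulated data for this comparison (14337 genes), edgeR found 28% of 100 genes simulated at 2-fold and 83% of 100 simulated at 4-fold, and made 8 false calls. Floors of 3 counts, 0.0796 to 0.102 CPM, cover counting error only. Every pair of libraries differed by more than sampling noise, with chi-square at least 48.0 times its degrees of freedom. The members, the 11 pathway and 17 marker lists and the tests were chosen with earlier results of these data known, and 3 lists were added after the values were seen. The naming rule took all 9 members, Dnmt3a, a set of partner genes, the 3 most abundant tested genes per pathway list (2 per marker list) and any gene called; not all of these are printed, and other names were chosen after their values were seen. Alternatives were DESeq2, other scaling and filters, limma on TPM, the replicate number as a block, sex read from Xist, an alveolar type 2 score, and leaving out libraries.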

Additional observations from a re-analysis of the deposited data

How the results depend on the processing

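Each result was recomputed under 20 alternatives, of which leaving out KO replicate 2 together with WT replicate 3 was chosen after the data were seen. The count of members called was 0 in all 20. The count of all genes called was 5 by edgeR, 406 by DESeq2, 9 by limma on log2(TPM + 0.1), 2 with sex as a covariate, 0 in male libraries only (1572 with an unadjusted p under 0.05) and 0 without KO replicate 2 and WT replicate 3 (1382 with an unadjusted p under 0.05); leaving out 1 library at a time gave 1 to 4. With the replicate number as a block it was 0 (1472 with an unadjusted p under 0.05). Whether the numbers pair the libraries is not stated, and they were not treated as pairs. The deviations of same-numbered KO and WT libraries correlated at 0.28, -0.05 and -0.18 over the tested genes. KO replicates 2 and 3 correlated best with another number. Such correlations cannot settle pairing with so few libraries per label, and same-numbered libraries shared a sex by Xist.

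The members' median log2 fold change ranged from -0.06 to 0.41, lowest without KO replicate 2. Gpihbp1, Plvap, Cadm1 and Ptprb were above 0 and Kit below 0 in all 20, at 0.21 to 0.46, 0.19 to 0.43, 0.23 to 0.89, 0.19 to 0.49 and -0.63 to -0.18. Cd93, Hpgd, Lpl and Adgrl4 had the sign of the fit on all libraries in 14, 18, 19 and 16 of the 20. The medians of the pathway lists crossed 0 in some alternatives, except that of caveolae and VEGF receptors. No scaling moved the median of all genes by over 0.1. Depth was no limit for the members, the lowest of which had 1925 counts, and in the simulation edgeR called 28% and DESeq2 54% of the genes changed 2-fold, with 8 and 39 false calls.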

Other observations

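The 25 genes that were highest in KO replicate 2 by at least 3-fold, chosen after their values were seen, held other metabolic enzymes beside Lpl. Xdh, xanthine dehydrogenase, reached 547 CPM in KO replicate 2, with 50.5 and 37.4 CPM in KO replicates 1 and 3 and 38.4, 32.5 and 75.1 CPM in WT replicates 1, 2 and 3. Sult1a1, a sulfotransferase, was at 13.6, 169 and 12.1 CPM in KO and at 7.79, 9.21 and 10.3 CPM in WT, and Gpx3, a glutathione peroxidase, at 22.1, 139 and 20.9 CPM in KO and at 20.2, 19.2 and 17.5 CPM in WT (replicates 1, 2 and 3).

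A list of 10 genes known to respond to glucocorticoids, made after the values were seen, held 9 genes with a log2 fold change above 0 and 0 called by edgeR (6 with an unadjusted p under 0.05, and 3 called by DESeq2: Cebpd, Klf9 and Per1). Of all tested genes, 50.9% were above 0 and 12.6% had an unadjusted p under 0.05 by edgeR. Because the list was made with the values known, its counts are a description and not a test. Tsc22d3, which encodes GILZ, measured 393, 1159 and 640 CPM in KO replicates 1, 2 and 3 and 305, 331 and 459 CPM in WT replicates 1, 2 and 3. Zbtb16, a zinc finger repressor, was at 0.372, 10.1 and 2.27 CPM in KO and at 0.274, 0 and 0 CPM in WT. Per1, a clock gene, was without overlap of KO, at 117, 167 and 166 CPM, and WT, at 26.5, 41.6 and 24.3 CPM (edgeR adjusted p = 0.057). Sgk1, a kinase of the same list, went the other way, at 1231, 1400 and 1726 CPM in KO and 1633, 2275 and 4388 CPM in WT. Of 9 genes of fatty acid use, likewise listed afterwards, 4 had a log2 fold change above 0 and 0 were called by edgeR (2 with an unadjusted p under 0.05, and Fabp4 called by DESeq2). Cpt1a, which admits fatty acids to mitochondria, was at 204 to 274 CPM in KO and 218 to 286 CPM in WT.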
